A study of Mus musculus with 2 samples.

Results

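Gene body regions were the stretches of methylated liver DNA that lay wholly inside a transcript, away from both of its ends. They were taken from lists of enriched regions of 1 Pemt-/- mouse and 1 Pemt+/+ mouse, each of which pairs every region with the RefSeq transcripts within 10 kb and states where the region lies relative to them. A region was a member when at least 1 transcript contained it and none reached into it with only 1 end. A region that covered a whole smaller transcript was kept, and each region was used once. By this rule 37410 of the 97063 regions of the Pemt-/- mouse and 50831 of the 131279 regions of the Pemt+/+ mouse were gene body regions. Pemt is a liver enzyme of phospholipid synthesis that consumes methyl groups, and the sample records describe 1 liver of a Pemt knockout and 1 liver of a Pemt+/+ mouse, both on the high fat-high sucrose (HFHS) diet. The diet is recorded as running from 5 weeks of age and the livers as taken at 25 weeks. The study's methods instead describe livers taken at weekly steps early in HFHS feeding for the enrichment of methylated DNA. Which timing holds for these 2 livers is not settled here. The kit captures methylated DNA fragments, which are then sequenced, so a region is a place where captured reads, here called tags, pile up, and not a percentage of methylated cytosines. With 1 library per genotype there is no replicate error, and every difference below is one between 2 libraries, in which genotype, mouse and sequencing depth cannot be told apart. All intervals are 95% and cover counting error only. Liver is a mixture of hepatocytes and other cells, and a share of methylated cells in one type cannot be told from a share in another.

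In mammals most CpG sites inside transcribed genes are methylated, while CpG islands at promoters are mostly free of methylation. In the gene body the mark is laid down largely by Dnmt3b and kept by Dnmt1, and it is known from genes that are transcribed as well as from silent ones. A capture assay sees such methylation best where methylated CpG sites lie close together, so the regions mark dense stretches rather than all methylated bases.

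The promoters of 4 genes show what dense and sparse CpG content at a gene start looks like, since the position of gene body regions is described below by this content. All 4 had a gene body region in both mice whose middle lay within 2 kb of the transcript's 5′ end. Kif14, Kbtbd10 and Celsr2 had the most tags there, summed over both mice, among genes with few, intermediate and many CpG sites. Slc41a2 is a further gene with many, chosen after its values were seen. The sequences are the 300 bases around each gene start in RefSeq, assembly GRCm38.p6, written 5′ to 3′ with every CpG in capitals.
Kif14 (chr1:136467598-136467897, + strand): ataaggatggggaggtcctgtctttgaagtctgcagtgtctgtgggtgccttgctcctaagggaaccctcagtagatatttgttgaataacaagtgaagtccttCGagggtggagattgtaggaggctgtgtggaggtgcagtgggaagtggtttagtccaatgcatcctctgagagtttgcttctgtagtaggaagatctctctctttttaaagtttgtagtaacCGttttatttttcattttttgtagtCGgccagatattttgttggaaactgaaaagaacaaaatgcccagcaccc
Kbtbd10 (chr2:69669870-69670169, + strand): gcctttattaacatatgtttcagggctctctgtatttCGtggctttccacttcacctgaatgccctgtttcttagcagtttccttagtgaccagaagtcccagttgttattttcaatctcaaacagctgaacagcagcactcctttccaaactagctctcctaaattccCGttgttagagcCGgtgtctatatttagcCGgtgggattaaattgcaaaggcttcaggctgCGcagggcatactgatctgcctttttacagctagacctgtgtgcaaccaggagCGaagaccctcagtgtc
Slc41a2 (chr10:83337768-83338067, - strand): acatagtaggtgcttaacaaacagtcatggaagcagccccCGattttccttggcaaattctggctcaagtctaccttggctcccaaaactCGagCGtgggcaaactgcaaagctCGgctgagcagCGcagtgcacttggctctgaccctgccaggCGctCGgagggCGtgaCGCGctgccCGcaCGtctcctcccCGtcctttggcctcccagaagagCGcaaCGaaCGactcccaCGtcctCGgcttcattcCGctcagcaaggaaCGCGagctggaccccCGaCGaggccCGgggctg
Celsr2 (chr3:108415530-108415829, - strand): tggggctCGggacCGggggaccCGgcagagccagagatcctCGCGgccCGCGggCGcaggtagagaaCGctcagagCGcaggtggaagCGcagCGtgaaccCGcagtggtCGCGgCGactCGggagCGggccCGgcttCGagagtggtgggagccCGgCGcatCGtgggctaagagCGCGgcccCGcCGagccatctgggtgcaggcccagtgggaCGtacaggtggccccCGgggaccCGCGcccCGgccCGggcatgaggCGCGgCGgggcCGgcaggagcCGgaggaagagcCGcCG
They hold 3, 6, 24 and 40 CpG sites. The gene body regions just inside these genes have positions on mm9, the build of the lists. Kif14, a mitotic kinesin, had a region at chr1:138364738-138365894 with 34 tags in Pemt-/- and an overlapping one with 60 tags in Pemt+/+. In Kbtbd10, a Kelch-repeat gene of muscle, the region at chr2:69508349-69509427 held 55 tags in Pemt-/- and its partner 106 in Pemt+/+. In Slc41a2, a magnesium transporter, the region at chr10:82798692-82799123 held 43 tags and its partner 72. In Celsr2, a large cadherin of planar cell polarity, the region at chr3:108215082-108217774 held 73 tags and its partner 124. Each of the 4 genes had overlapping methylated stretches in both mice, with fewer tags in Pemt-/-.

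Gene body regions made up nearly the same part of both lists. They were 38.5% of the Pemt-/- regions (38.2 to 38.8%) and 38.7% of the Pemt+/+ regions (38.5 to 39.0%). They covered 17.2 Mb in Pemt-/- and 23.6 Mb in Pemt+/+ and held 604756 and 1089640 tags, which was 38.2% and 38.3% of all tags in the regions. Their median length was 419 bp in Pemt-/- and 422 bp in Pemt+/+. The median region held 13 tags in Pemt-/- (quartiles 10 and 19, range 8 to 324) and 17 tags in Pemt+/+ (quartiles 12 and 25, range 9 to 581). In tags and length the gene body regions were close to the other regions of the same mouse, whose median tags were also 13 and 17. They differed in how far they stood above the background. The mean fold enrichment, the ratio of reads in the region to the background, was 17.7 in both mice against 19.1 in the other Pemt-/- regions and 19.2 in the other Pemt+/+ regions, and it was lower in gene bodies on 19 of 20 chromosomes in each mouse. The median score, 10 times the −log10 p-value that the peak caller gave, was 86.5 against 92.0 in Pemt-/- and 101 against 108 in Pemt+/+.

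The gene body share differed more between chromosomes than between mice. It was highest on chromosome 19 in Pemt-/- (46.4%, 44.6 to 48.3%), where the Pemt+/+ value was 45.8% (44.3 to 47.4%), and on chromosome 11 in Pemt+/+ (46.6%, 45.5 to 47.8%), where Pemt-/- had 45.7% (44.3 to 47.1%). It was lowest on the X chromosome, with 254 of 1079 regions in Pemt-/- (23.5%, 21.1 to 26.2%) and 369 of 1707 in Pemt+/+ (21.6%, 19.7 to 23.6%). Among autosomes chromosome 3 was lowest, with 32.8% and 32.9%. On each of these chromosomes the intervals of the 2 mice overlapped, while those of chromosomes 3 and 19 lay far apart.

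Most gene body regions of the shorter Pemt-/- list had a counterpart in the other mouse. An overlap of at least 1 bp was found for 30689 of them (82.0%, 81.6 to 82.4%) and for 30676 gene body regions of the Pemt+/+ list (60.3%, 59.9 to 60.8%). The other regions were shared more often, at 84.1% in Pemt-/- and 62.3% in Pemt+/+. The difference was -2.06 percentage points in Pemt-/- (-2.55 to -1.57) and -1.97 in Pemt+/+ (-2.52 to -1.43), and gene body regions were shared less on 20 of 20 chromosomes in Pemt-/- and on 18 of 20 in Pemt+/+. Seen from the other side, 6721 Pemt-/- gene body regions and 20155 Pemt+/+ gene body regions overlapped nothing in the other mouse, against a background of 16.7% and 38.4% over all regions of the lists. These shares depend on list length. With the Pemt+/+ list limited to as many top-scoring regions as the Pemt-/- list, the gene body shares were 70.1% in Pemt-/- and 71.3% in Pemt+/+.

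Sharing rose steeply with the tags of a region. Shared gene body regions held a median of 14 tags in Pemt-/- and 21 in Pemt+/+, unshared ones 10 and 13. In Pemt-/- the shared part went from 58.7% of the gene body regions with 8 to 9 tags to 98.6% of those with 50 or more. In Pemt+/+ it went from 24.5% to 98.1% over the same classes. In the same tag class the gene body regions lay below the other regions, except in the lowest class of Pemt+/+. For example, Pemt-/- regions of 15 to 19 tags were shared in 91.9% of cases in gene bodies (91.3 to 92.5%) and in 94.3% elsewhere (93.9 to 94.7%), and Pemt+/+ regions of 20 to 29 tags in 78.3% (77.5 to 79.1%) and 81.4% (80.8 to 82.0%). In that lowest class the values were 24.5% in gene bodies and 23.8% elsewhere, with overlapping intervals.

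**Figure D1:**
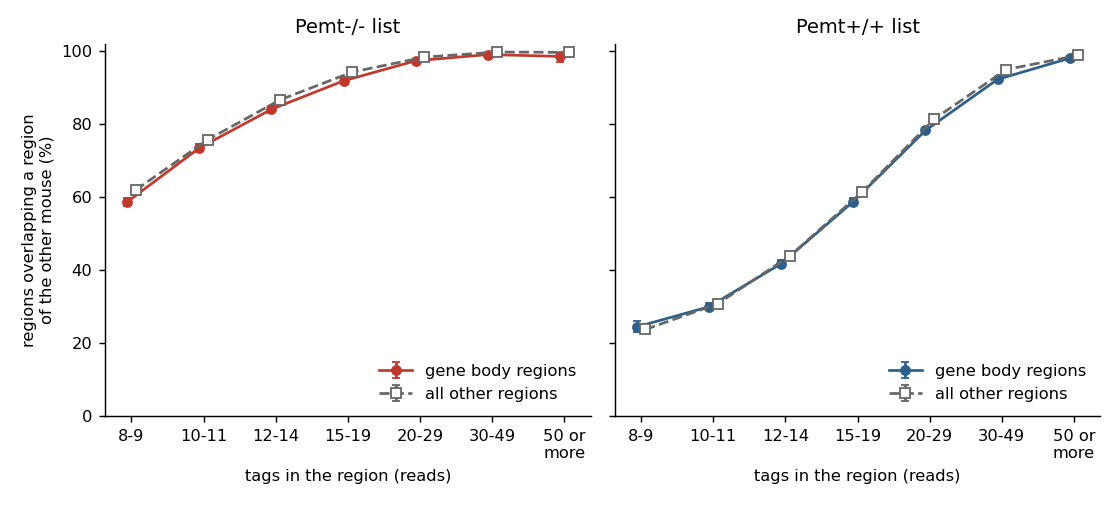
Share of regions (%) that overlap a region of the other mouse, by the tags of the region, for gene body regions (filled circles) and all other regions (open squares) of the Pemt-/- list on the left and the Pemt+/+ list on the right; bars are 95% Wilson intervals. Both kinds rise from 58.7% and 62.0% (Pemt-/-) or 24.5% and 23.8% (Pemt+/+) at 8 to 9 tags to 98.1% or more at 50 tags.

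A small part of the unshared gene body regions lay close to a region of the other mouse without touching it. In Pemt-/- 673 of the 6721 lay within 500 bp of a Pemt+/+ region, and in Pemt+/+ 1447 of the 20155 (7.18%) lay within 500 bp of a Pemt-/- region. Of the unshared regions elsewhere 816 of 9490 and 1895 of 30310 (6.25%) did. The median gap to the nearest region was 3766 bp in Pemt-/- and 5109 bp in Pemt+/+, compared with 4956 and 6530 bp for unshared regions elsewhere. Of the unshared gene body regions, 20.2% in Pemt-/- and 28.2% in Pemt+/+ were more than 10 kb from any region of the other mouse, compared with 2753 of 9490 and 11296 of 30310 (37.3%) elsewhere.

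In the 30000 pairs of gene body regions that overlapped one to one, the Pemt-/- region mostly held fewer tags. Tags in Pemt-/- divided by tags in Pemt+/+ had a median of 0.690 (0.688 to 0.692, quartiles 0.550 and 0.857), and 10.9% of the pairs had a ratio over 1. In the 49228 pairs of other regions the median was 0.675 (0.667 to 0.679). The gene body median was the higher one on 17 chromosomes, equal on 2 and lower on 1. Library totals were not used here, so the ratio is not corrected for depth, and a ratio under 1 was the rule in both classes. The ratio fell with depth, from 0.833 in gene body pairs with 17 to 24 summed tags to 0.627 in those with 80 or more, where other pairs had 0.818 and 0.615. No gene body region of fewer than 8 tags is in the Pemt-/- list, and the part of this limit in the trend was not tested.

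**Figure D2:**
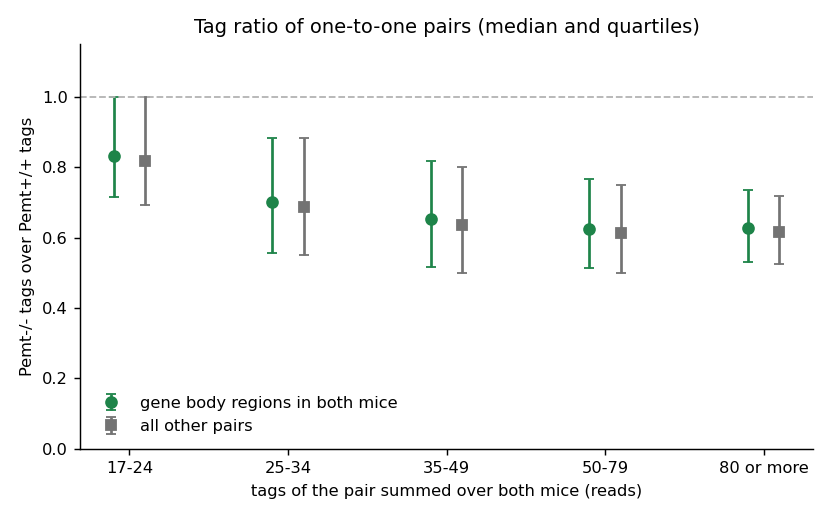
Ratio of Pemt-/- tags to Pemt+/+ tags in regions that overlap one to one, by the tags of the pair summed over both mice; points are medians and bars reach from the lower to the upper quartile, for gene body pairs (circles) and other pairs (squares). The gene body median falls from 0.833 to 0.627 and lies above that of the other pairs by a small step in every class.

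Few gene body pairs departed from the common ratio by 2-fold. Relative to the median of all 79393 pairs, 0.682, the ratio was at least 2-fold higher in 670 gene body pairs (2.23%, 2.07 to 2.41%), against 2.12% of all pairs. It was at least 2-fold lower in 570 (1.90%, 1.75 to 2.06%), against 1.93% of all pairs. Both shares were near the background. Of the 12702 gene body pairs with at least 40 summed tags, 773 (6.09%) had a ratio over 1.

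The pairs with the most extreme ratios, among those with at least 40 summed tags, were mostly pairs of regions of unequal length. At the high end stood Tmem2, a cell surface hyaluronidase, with 36 tags over 1034 bp in Pemt-/- (chr19:21891338-21892371) and 10 tags over 287 bp in Pemt+/+, a ratio of 3.60. Dhtkd1, a mitochondrial dehydrogenase component of lysine breakdown, followed with 33 tags over 1207 bp and 10 tags over 332 bp. Pak1ip1 had 35 tags over 1285 bp and 14 tags over 559 bp. Only Cat, the peroxisomal catalase, had regions of similar length in both mice among these 5 pairs, with 28 tags over 490 bp in Pemt-/- (chr2:103294602-103295091) and 12 tags over 477 bp in Pemt+/+. The share of the pair's tags that came from Pemt-/- was 70.0% in Cat (54.6 to 81.9%). Cat was picked for its high ratio from 12702 pairs with a median ratio of 0.633, so this interval does not measure an excess. Alg9, a mannosyltransferase of N-glycan assembly, had 28 and 12 tags over 597 and 306 bp. At the low end Mylip, a ubiquitin ligase that degrades the LDL receptor, had 9 tags over 268 bp in Pemt-/- and 53 tags over 614 bp in Pemt+/+, a ratio of 0.170. Setd1a, a histone H3 methyltransferase, had 9 and 50 tags, Sh3gl2, an endophilin, 9 and 48, Kank1 12 and 63, and the transcription factor gene Sox30 8 and 40. In all 5 pairs of the low end the Pemt+/+ region was the longer one, for Kank1 1106 bp against 294 bp.

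The gene body regions fell in 9292 genes in Pemt-/- and 10401 genes in Pemt+/+, of which 8873 were common to both. That is 95.5% of the Pemt-/- genes and 85.3% of the Pemt+/+ genes. A gene counted as common even where its regions in the mice did not overlap, so these shares cannot be compared with those of shared regions. A gene with a region had a median of 2 in each mouse and a mean of 4.06 and 4.93, and 3407 genes (36.7%) in Pemt-/- and 3243 genes (31.2%) in Pemt+/+ had a single region. At the other end 877 genes with 10 or more regions held 41.3% of the Pemt-/- regions counted by gene, and 1307 genes held 49.7% in Pemt+/+. Only 179 Pemt-/- regions (0.478%) and 248 Pemt+/+ regions (0.488%) lay in more than 1 gene.

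Genes with regions in a single mouse had few of them, and those given here were named after their values were seen. Of the 419 genes with gene body regions in Pemt-/- only, 93.1% had 1 region, and none had more than 3. The pair with 3 were Dscc1, a subunit of a clamp loader of sister chromatid cohesion (36 tags), and Hoxa3, a homeobox gene (31 tags). Of the 1528 genes with regions in Pemt+/+ only, 73.8% had 1 region. The most were in Cacna1g, a T-type calcium channel gene with 6 regions and 89 tags. Next were AU040320, Dnaic2, Ret, which encodes a receptor tyrosine kinase, and Syn2, a synapsin gene, each with 5 regions and 54 to 78 tags.

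Long genes held the most regions. Grip1, a scaffold protein of glutamate receptors on chromosome 10, led with 79 regions and 1637 tags in Pemt-/- and 116 regions and 3210 tags in Pemt+/+. Camta1, a calmodulin-binding transcription activator, had 73 and 111 regions, Cdh13, a cadherin without a transmembrane part, 77 and 105, and Auts2, a gene of neuronal development, 70 and 103. Gpc6, a glypican, had 75 and 90 regions, the lysine methyltransferase gene Smyd3 65 and 83, and Pde4d, a cAMP phosphodiesterase, 62 and 85. Anks1b (55 and 77), Sdk1 (57 and 73) and the sialyltransferase gene St6galnac3 (54 and 74) completed the 10. All 10 had more regions in Pemt+/+. In Grip1 6 regions of the Pemt-/- list and 43 of the Pemt+/+ list had no overlap with the other mouse. The tag ratio of its 70 pairs was 0.630.

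**Figure D3:**
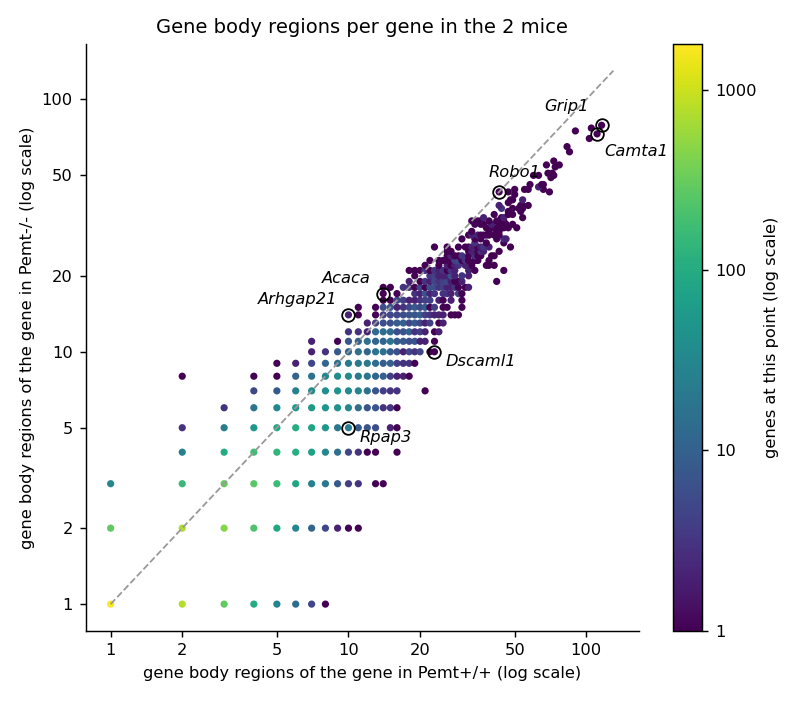
Number of gene body regions of each gene in Pemt+/+ (horizontal, log scale) and Pemt-/- (vertical, log scale) for the 8873 genes with regions in both mice; colour gives how many genes share a point and the dashed line marks equal numbers. Most genes with many regions lie below the line, as Grip1 at 116 and 79 does, and Robo1, with 43 in each, lies on it.

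Across genes the ratio of region numbers varied more than the tag ratio of pairs, but they are unlike measures. Region numbers could be as low as 10 per gene, while tags were summed over pairs, which are shared regions only. The gene sets also differed. Among the 861 genes with 10 or more regions in each mouse the ratio of Pemt-/- to Pemt+/+ regions had a median of 0.772 (quartiles 0.692 and 0.875), and 45 genes had more regions in Pemt-/-. Its extremes, named after their values were seen, were Dscaml1, an adhesion molecule gene with 10 regions against 23 (0.435), and Arhgap21, a GTPase-activating protein gene with 14 against 10 (1.40). Over the 634 genes with at least 10 pairs the ratio of paired tags had a median of 0.663 (quartiles 0.624 and 0.704). It ran from 0.479 in Tox2, an HMG-box gene with 140 paired tags against 292, to 0.914 in Me1, the cytosolic malic enzyme, with 192 against 210. No gene of the 634 had a ratio over 1. The paired tags of Dscaml1 and Arhgap21, with 9 and 7 pairs, had ratios of 0.645 and 0.661, near this median.

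Among genes of at least 20 kb with 5 or more regions in each mouse, a set of 2184, the 10 with the most regions per 100 kb were led by Vmn2r99, a vomeronasal receptor, Speer8-ps1, a pseudogene, and Gm13152, named Zfp982 in the reference. Lengths came from the later assembly GRCm38.p6, and in these 3 the regions spanned 1044, 220 and 326 kb on mm9 against gene lengths of 32.5, 33.2 and 73.0 kb, so densities over the gene length, up to 136 per 100 kb, do not describe these 3 genes. Over the spans they were 3.26 to 10.5. This held for 12 of the 2184 genes (0.549%). The other 7 had spans within their lengths. Irak4, a kinase of Toll-like receptor signalling, had 8 regions in Pemt-/- and 7 in Pemt+/+ over 24.7 kb, which is 32.4 and 28.3 per 100 kb. Dhrsx, on an unplaced stretch of chromosome 4, had 5 and 6 regions over 21.9 kb with 297 and 448 tags. The cargo receptor gene Lman1 (5 and 6), 1700054N08Rik (5 and 5), the helicase gene Helq (8 and 10), Rpap3 (5 and 10) and Dna2, a nuclease and helicase of DNA replication (5 and 8), followed, at 16.3 to 32.5 regions per 100 kb. Dna2 held 93 tags in Pemt-/- and 294 in Pemt+/+. Rpap3 held 140 and 427, and 7 of its 10 Pemt+/+ regions overlapped none in Pemt-/-, against 38.4% of all Pemt+/+ regions.

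The presence of a gene body region followed gene length. Of the coding genes under 5 kb, 8.03% had one in Pemt-/- and 10.8% in Pemt+/+. The share was 57.5% and 63.5% of genes of 20 to 50 kb and 78.4% and 80.1% of genes of 100 to 200 kb. At 500 kb and more it was 78.9% in both mice, and the other 48 of the 227 genes of that length were named in no line of either list, as neighbour or as host. Over all lengths 14143 of 21031 coding genes (67.2%) were named. Regions inside unnamed genes, if any, count here as outside gene bodies. Of the named genes 99.3% of those of 100 to 200 kb and all 179 of those of 500 kb and more had a gene body region in at least 1 mouse. Per length the longest genes had the fewest. Named genes of 50 to 100 kb had 5.39 regions per 100 kb in Pemt-/- and 7.21 in Pemt+/+, those of 200 to 500 kb 4.35 and 5.85, and those of 500 kb and more 2.42 and 3.26. The order was the same in both mice.

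Gene body regions were sparse just after the 5′ end and dense before the 3′ end. Both ends could be placed for 3780 transcripts that also had regions in their flanks, and 12837 Pemt-/- regions (34.3%) and 17469 Pemt+/+ regions (34.4%) lay in them. With each transcript divided into 10 equal parts, the first held 7.24% of these regions in Pemt-/- (6.80 to 7.70%) and 7.06% in Pemt+/+ (6.69 to 7.45%). The last held 13.1% (12.5 to 13.7%) and 12.7% (12.2 to 13.2%). The median relative position was 0.560 in both mice. Regions that cross an end are left out by the rule, so region middles very close to either end are missing. How many regions were left out at each end was not counted here.

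Distances showed how short the sparse stretch was. In the 449 transcripts of at least 100 kb, the 500 bp after the 5′ end held 8.91 region middles per Mb in Pemt-/- (1.08 to 32.2, 2 regions) and 17.8 in Pemt+/+ (4.85 to 45.6, 4 regions). At 500 to 1000 bp there were 26.7 (9.81 to 58.2) and 31.2 (12.5 to 64.2), and from 1 to 2 kb 57.9 (37.8 to 84.8) and 75.7 (52.4 to 106). The last values already overlapped those at 30 to 50 kb, 62.0 (57.0 to 67.4) in Pemt-/- and 81.6 (75.8 to 87.8) in Pemt+/+. Towards the 3′ end the density rose within the last 5 kb. It was 72.4 (66.9 to 78.2) and 98.7 (92.3 to 105) at 30 to 50 kb before the end, 136 (104 to 175) and 163 (127 to 204) at 1 to 2 kb, and 134 (90.2 to 191) and 214 (158 to 283) at 500 to 1000 bp. In the last 500 bp it was 84.6 (51.0 to 132) and 116 (75.7 to 170). The rule lowers the bins within 500 bp of either end, since a region must lie wholly inside the transcript. By how much was not measured. The 2 libraries had the same shape, with Pemt+/+ above Pemt-/- in every bin.

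**Figure D4:**
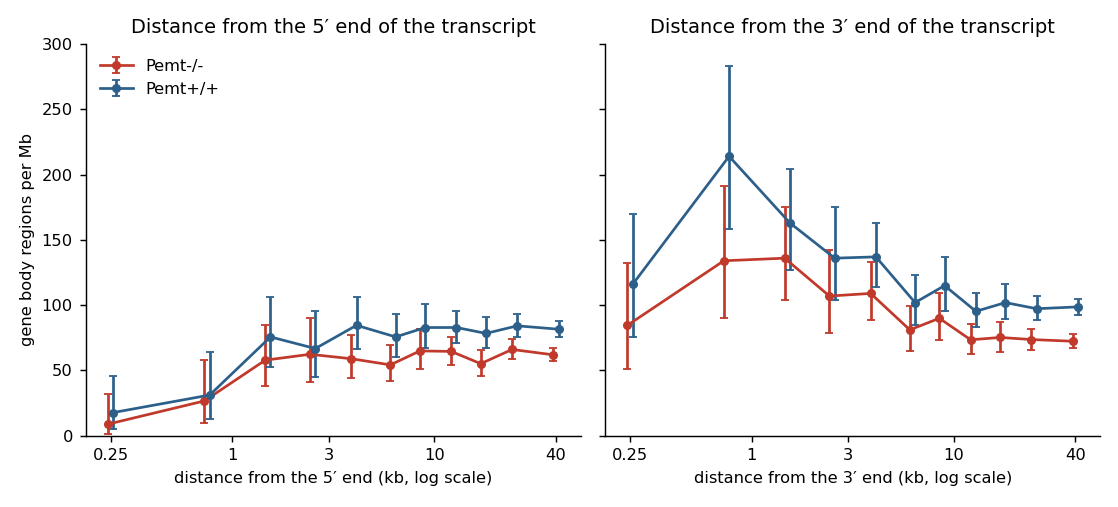
Density of gene body regions (region middles per Mb of transcript) against the distance from the 5′ end (left) and the 3′ end (right) in 449 transcripts of at least 100 kb, for Pemt-/- and Pemt+/+; distance is on a log scale and bars are 95% Poisson intervals. Density is lowest in the 500 bp after the 5′ end (8.91 and 17.8 per Mb) and highest between 500 bp and 2 kb before the 3′ end (134 to 214 per Mb). Regions that cross an end are left out, which lowers the bins within 500 bp of either end.

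The share of genes with a gene body region rose with the CpG content of the promoter. RefSeq promoter sequences were at hand for 16853 of the 21031 coding genes (80.1%). A gene body region was found in 56.1% of genes with 15 or more CpG sites in the 300 bases in Pemt-/- and 61.4% in Pemt+/+, in 41.3% and 47.4% of genes with 5 to 14, and in 18.1% and 21.4% of genes with fewer than 5. The genes of these classes differ in length, with medians of 25.8, 17.1 and 5.74 kb, and in how many are named in the lists. Among named genes of 20 to 50 kb the shares were 82.3% and 89.5%, 74.4% and 84.1%, and 63.0% and 72.8%. The order of the classes was kept at this length. At 100 to 200 kb it was not, and the shares of named genes lay between 93.8% and 99.1% in every class. In the first 2 kb of transcripts of at least 10 kb, 6.72% of the 1473 with a CpG-rich promoter had a region in Pemt-/- (5.55 to 8.12%) and 8.42% in Pemt+/+ (7.11 to 9.95%). Of the 200 with fewer than 5 CpG sites, 20 (6.57 to 14.9%) and 30 (10.7 to 20.6%) had one. Of the 466 with 5 to 14 sites, 6.65% (4.73 to 9.29%) and 10.1% (7.67 to 13.2%) had one. The intervals of the outer classes overlapped in Pemt-/- and did not in Pemt+/+. In the last 2 kb 20.9% and 28.3% of the CpG-rich class and 39 and 48 of the 200 had one, with overlapping intervals.

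The gene body regions with the highest scores were shared by both mice. In Pemt-/- they were in Aida on an unplaced stretch of chromosome 1 (158 tags, Pemt+/+ partner 160), in Chl1, a neural adhesion molecule gene (chr6:103598976-103599770, 206 and 226 tags), and in Sfi1, a centrin-binding protein gene (chr11:3049905-3051347, 311 and 420 tags). Fhit, a large gene over a fragile site (98 and 111 tags), and 2210408I21Rik (83 and 92 tags) followed. In Pemt+/+ the first 5 were Chl1, Aida, Cds1, an enzyme of phosphatidylinositol synthesis (174 tags, Pemt-/- partner 123), Sfi1 and Lca5, a ciliary gene (178 and 109 tags). Aida, Chl1 and Sfi1 were among the first 5 in both mice. The fold enrichment was 43.6 and 45.8 in Aida, 43.7 and 43.5 in Chl1, and 17.6 and 17.4 in Sfi1.

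The unshared gene body regions with the highest scores held 16 to 46 tags, with 1 exception. In Pemt-/- they were in Kcnh7, a potassium channel gene (24 tags), Mid1, a ubiquitin ligase gene on the X chromosome (306 tags), Arhgap10 (16 tags), Lphn2, an adhesion receptor gene (19 tags), and Smad9, a mediator of BMP signalling (17 tags). In Pemt+/+ they were in Lyn, a Src family kinase gene (29 tags, fold enrichment 46.2), the vomeronasal receptor gene Vmn2r91 (46 tags), the sodium channel gene Scn3a (30 tags), Mobkl2a (40 tags) and Clcn7, a lysosomal chloride transporter gene (32 tags). Mid1 stood apart. Its Pemt-/- regions at chrX:166422128-166423298 and chrX:166423441-166424310 held 286 and 306 tags at fold enrichments of 2.52 and 5.96. The Pemt+/+ mouse had a region of 581 tags with fold enrichment 5.36 at chrX:166416085-166418507, which overlapped neither, so both mice had a heavily tagged stretch with little excess over background inside this gene. Another 2 Mid1 regions in each mouse overlapped one to one, with 17 and 38 tags in Pemt-/- and 23 and 37 in Pemt+/+.

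The shorter list of each mouse repeats part of these regions. Of the gene body regions, 837 in Pemt-/- (2.24%, 2.09 to 2.39%) and 2390 in Pemt+/+ (4.70%, 4.52 to 4.89%) were also in the shorter list of the same mouse, against 2.13% and 4.59% of all regions. Of these, 773 (Pemt-/-) and 1974 (Pemt+/+) were unshared. The same held for 1127 of the 1229 other regions in the shorter list of Pemt-/- and 2920 of the 3636 of Pemt+/+. The 5 unshared Pemt+/+ regions just named were all in it, and of the 5 Pemt-/- regions all but the Mid1 region were. Both lists of a mouse come from the same library, so presence in the shorter one is no separate evidence for a region.

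Long regions were somewhat more frequent in gene bodies. Regions of 1500 bp or more numbered 73 in Pemt-/- gene bodies (0.195%, 0.155 to 0.245%) against 77 elsewhere (0.129%, 0.103 to 0.161%), and 140 in Pemt+/+ (0.275%, 0.233 to 0.325%) against 143 (0.178%, 0.151 to 0.209%). The longest in both mice lay in Ttn, which encodes the muscle protein titin and has very long exons, at chr2:76547270-76551701 with 324 tags over 4432 bp in Pemt-/- and 521 tags over 5597 bp in Pemt+/+. Other genes with regions of this size in both mice, named after their values were seen, were Uaca (3011 and 2829 bp), the cadherin gene Celsr2 (2693 and 2633 bp) and the zinc finger gene Zfp619 (2419 and 2632 bp). Spen had a region of 3696 bp in Pemt+/+ and Dst one of 3120 bp, with partners of 63 and 48 tags in Pemt-/-. Whether such regions lie in exons was not analysed here.

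Genes named for what they do in the liver or in methylation were read against all coding genes. The background share with a gene body region was 43.7% of coding genes in Pemt-/- and 48.8% in Pemt+/+, or 65.0% and 72.6% of the 14143 named genes. The lists were chosen with earlier results of these data known, and a share reflects gene length, so each is a description only.

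The writers, erasers and readers of DNA methylation had regions in 15 and 16 of 18 named genes, of 22 in all. Dnmt1, the maintenance methyltransferase, had 6 regions with 84 tags in Pemt-/- and 4 regions with 83 tags in Pemt+/+, of which 2 overlapped. Dnmt3a and Dnmt3b, which methylate new sites, had 7 and 6 regions and 3 and 4 regions. Tet2, a dioxygenase that oxidises methylcytosine, had 6 regions with 81 tags in Pemt-/-, each overlapped by a Pemt+/+ region, and 10 regions with 144 tags in Pemt+/+. Mbd5, of the methyl-CpG-binding domain family, had 7 and 10 regions. Mbd6 had 1 region in Pemt-/- only (9 tags), and Mbd4 and Zfp57 had 1 each in Pemt+/+ only (14 and 23 tags). Zbtb4 was named without a gene body region. Over the 40 pairs of the list the ratio of summed tags was 0.691. For all gene body pairs this ratio of sums was 0.669, and the ratios given for the other lists are sums as well.

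Of the genes of the methionine cycle and one-carbon metabolism, which supply the methyl donor that Pemt also uses, 21 and 23 of 29 named genes had a region. Mthfd1l, a mitochondrial formate-forming enzyme, had the most, 18 regions with 301 tags in Pemt-/- and 22 with 525 tags in Pemt+/+, and its strongest pair, at chr10:6243135-6243781, held 37 and 49 tags. Dmgdh, dimethylglycine dehydrogenase, had 7 and 11 regions, with a Pemt+/+ counterpart for all 7. Mtr, methionine synthase, had 7 and 10 regions with 74 and 168 tags, and Mthfd2l 7 and 9. Bhmt, which remethylates homocysteine with betaine, had 2 regions and 18 tags in Pemt-/- and 1 region and 11 tags in Pemt+/+. Cbs, of transsulfuration, had 2 and 3 regions. Nnmt, nicotinamide methyltransferase, had 1 region in Pemt-/- only (9 tags), while Mthfd2, Shmt2 and Aldh1l1 had 1 or 2 in Pemt+/+ only (10 to 31 tags). The tag ratio over 66 pairs was 0.690. Pemt itself had 2 regions in each mouse with 50 and 60 tags, and whether these lie in the deleted part was not analysed here, so they do not check the knockout.

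Regions were found in 16 and 20 of 30 named genes of secreted proteins and metabolic enzymes, whose median length was 13.6 kb, and the tag ratio over their 29 pairs was 0.786. Pygl, liver glycogen phosphorylase, had 5 and 7 regions with 64 and 103 tags, and Gys2, liver glycogen synthase, 2 and 6 with 44 and 129. Hal, histidine ammonia lyase, had 4 and 5 regions with 61 and 69 tags. Trf, the transferrin gene, had 3 and 3 with 77 and 78 tags, and Apoh 2 and 2 with 38 and 40. Alb, the albumin gene, and Afp had 1 region each in Pemt+/+ only (10 and 15 tags), as had Hpd and Pklr, and Asl had 2 (36 tags), while Ahsg and Pck1 had 1 in Pemt-/- only (10 and 8 tags). Ambp, a plasma protein precursor gene, was the most uneven of those with a region in both mice, with 12 tags over 302 bp in Pemt-/- and 46 tags over 752 bp in Pemt+/+. Ttr, Apoa2, Fgb, Arg1, G6pc, Fbp1, Khk and Apoc3 were named without a gene body region.

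Of the liver transcription factors 13 of 20 named genes had a region in Pemt-/- and 11 of 20 in Pemt+/+. Prox1, a homeobox regulator of liver development, had 6 regions with 136 tags and 5 with 140. Ppara, the fatty acid receptor of hepatocytes, had 3 and 5 regions with 79 and 122 tags, and Onecut2 2 and 3 with 59 and 90. Hnf4a had a region of 9 tags in Pemt-/- and another of 13 tags in Pemt+/+ that did not overlap. Foxa3, Onecut1 and Atf5 had 1 region each in Pemt-/- only (10 to 21 tags) and Hhex 1 in Pemt+/+ only (9 tags). Foxa1, Cebpa, Cebpb, Nr1i3, Tbx3 and Xbp1 were named without one. The tag ratio over 15 pairs was 0.709.

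Among genes of lipid metabolism and steatosis 23 and 25 of 29 named genes had a region. Elovl6, a fatty acid elongase, had 15 regions with 286 tags in Pemt-/- and 18 with 466 tags in Pemt+/+, and 14 of the 15 had a counterpart. Its most heavily tagged pair, at chr3:129318407-129318747 in Pemt-/-, held 34 and 61 tags. Acaca, acetyl-CoA carboxylase, was one of the genes with more regions in Pemt-/-, 17 with 254 tags against 14 with 334 tags, of which 11 were paired. Acacb had 7 and 10 regions and Lpin1, a phosphatidate phosphatase, 9 and 10. Fasn, fatty acid synthase, had 2 regions in Pemt+/+ only (30 tags) and Plin5 1 (11 tags). Srebf1, Pparg, Hadha and Tm6sf2 were named without one. The tag ratio over 82 pairs was 0.715.

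In the p53 response, apoptosis and cell cycle list 23 of 26 named genes had a region in each mouse. Apaf1, which assembles the apoptosome, had 12 regions with 242 tags and 16 with 443, the cyclin-dependent kinase gene Cdk6 9 and 15, Ccnd3 7 and 10, and the retinoblastoma gene Rb1 8 and 8 with 109 and 135 tags. Trp53 had 2 regions with 28 tags in Pemt-/- and 3 with 63 tags in Pemt+/+. Cdkn1a, the p21 cell cycle inhibitor, had 2 and 2 regions with 23 and 48 tags. Cltc, the clathrin heavy chain gene, had 1 region in Pemt+/+ only (9 tags) and Perp 1 in Pemt-/- only (9 tags). For Fbxo31 the numbers were 4 and 3 regions and 53 and 49 tags, with 2 overlapping pairs. These 2 pairs held 24 tags in Pemt-/- against 40 in Pemt+/+, fewer in Pemt-/- as in the list as a whole. The Fbxo31 regions without overlap held 20 and 9 tags in Pemt-/- and 9 tags in Pemt+/+. The tag ratio over 64 pairs was 0.703.

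Imprinted genes, expressed from 1 parental allele, and the hosts of imprinting control regions had regions in 24 and 22 of 31 named genes. Kcnq1, whose body holds an imprinting control region, had 15 regions with 175 tags in Pemt-/- and 21 with 395 tags in Pemt+/+. Usp29 had 10 and 15 regions with 185 and 416 tags, Sgce 9 and 12, and Phactr2 12 and 13. Slc38a4, an amino acid transporter gene of liver and placenta, had 8 regions and 212 tags in Pemt-/- against 6 regions and 197 tags in Pemt+/+. Its 5 pairs held 143 against 182 tags, fewer in Pemt-/- as in the list as a whole. Peg10 had 2 regions with 27 tags in Pemt-/- and 1 with 75 tags in Pemt+/+, where the pair at chr6:4705667-4706104 held 16 and 75 tags over 438 and 1044 bp. Peg3 had 1 region with 27 tags and 4 with 169. Mest had 1 and 2 regions that did not overlap (8 and 50 tags). Ube3a had 2 regions in Pemt-/- only (21 tags). Zrsr1 had 1 region of 23 tags in Pemt-/- only, and there a Pemt+/+ region of 94 tags overlapped it that was no gene body region itself, since it ran from 22871875 to 22874187 on chromosome 11. Nnat, Mcts2, Nap1l5, Dlk1, H19, Igf2 and Phlda2 were named without a gene body region. The tag ratio of the 80 pairs was 0.641.

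The long genes of synapses and cell adhesion all had regions where they were named, 37 of 37 in both mice. Besides Cdh13 and Auts2 the most, summed over both mice, were in Park2, the parkin gene, with 50 and 73 regions, and in Robo1, an axon guidance receptor gene, with 43 and 43 regions and 882 and 1290 tags. The fewest were 6 in Pemt-/-, in Cdh12, and 8 in Pemt+/+, in Cntnap5a. Per length they had few, 1.39 regions per 100 kb in Pemt-/- and 1.81 in Pemt+/+ over all 46 genes, named or not. The values were 3.61 and 4.92 over all coding genes, and 1.93 and 2.59 over coding genes of 500 kb and more, which are closer in length. Dmd, the dystrophin gene of 2390 kb on the X chromosome, had 9 and 11. The tag ratio over 686 pairs was 0.668.

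**Figure D5:**
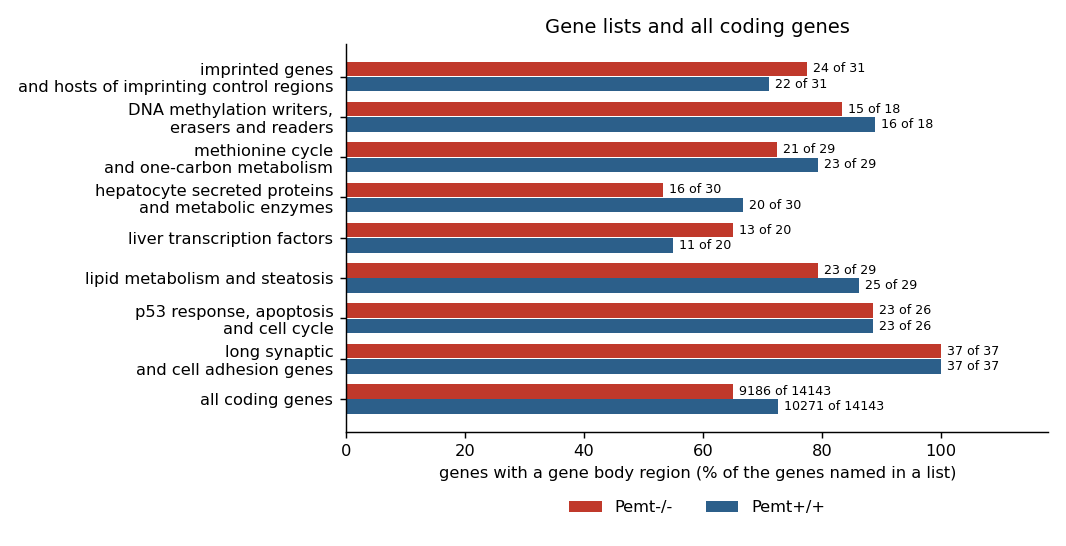
Percentage of the genes named in a list of regions that had a gene body region, for 8 gene lists and for all coding genes, in Pemt-/- and Pemt+/+; numbers beside the bars give the genes with a region and the genes named. All 37 named synaptic and adhesion genes had one in both mice. On this scale of named genes the hepatocyte genes (16 and 20 of 30) lay below all coding genes in both mice. The liver transcription factors (11 of 20) and the imprinted genes and hosts (22 of 31) did so in Pemt+/+. Over all genes, named or not, the hepatocyte genes had 42.1% in Pemt-/- and 52.6% in Pemt+/+, against 43.7% and 48.8% of coding genes. On that scale the imprinted genes had 55.0% and the liver transcription factors 44.0% in Pemt+/+. Whether a list lay above or below all coding genes thus depended on the scale.

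A few gene body regions covered a small gene nested in a larger one. Gm6251 was covered inside Mtap7, a microtubule-associated protein gene, in both mice (36 tags in Pemt-/- and 26 in Pemt+/+). In Pemt+/+ 1700071K01Rik was covered inside Accn1, an ion channel gene (72 tags), and Gm10136 inside Cdc37l1 (52 tags). Many more lay near a neighbouring gene. Within 10 kb upstream of another transcript were 5.07% of the Pemt-/- gene body regions and 5.21% of the Pemt+/+ ones, and within 10 kb downstream 5.96% and 6.34%.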

How the data were processed

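The data are 1 library of captured methylated DNA from the liver of 1 Pemt-/- and 1 Pemt+/+ mouse. The sample records name bisulphite-converted DNA, the EpiXplore enrichment kit and the TruSeq ChIP kit. The study's methods do not speak of bisulphite conversion, and whether DNA was converted before capture, which would change how reads align, is not settled here. The submitters' processing notes name CASAVA 1.8.2, Bowtie and mm9, without roles. Region names are those MACS gives. Its version, settings, control and duplicate handling are not given in the sources used here, and duplicates and the control both change tags and scores. In the deposited lists tags are raw read counts, one number per region, fold enrichment is a ratio over background made by the authors, the deposited score is 10 times the −log10 p-value, and the deposited FDR, not used further here, is a percent. Depth is known only as tags in regions, 1582080 in Pemt-/- and 2847831 in Pemt+/+.

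Regions were deduplicated by name, and overlaps of at least 1 bp were computed in Python 3.11.15 with pandas 2.3.3 and numpy 2.4.6 and checked with bedtools 2.31.1. Plots used matplotlib 3.10.9. Wilson intervals were used for shares, Newcombe's for differences, order statistics for medians and Poisson intervals for densities. No test was run. Transcript ends were worked out from the distances of flanking regions, since the lists give no transcript length, and gene lengths came from RefSeq (GRCm38.p6), not mm9 as would fit the lists. Gene symbols are those of the lists. Functions were tested on simulated lists. The members and lists were chosen with earlier results of these data known. Named by rule were the 10 genes with most regions and the 10 densest, the 4 genes with most regions of each list, the 5 highest-scoring regions and unshared regions per mouse, the 5 highest and lowest tag ratios, and Pemt, Fbxo31 and Hnf4a. Further members of the lists were named after their values were seen. Some members are not reported here.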

Additional observations from a re-analysis of the deposited data

How the results depend on the processing

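With the upper 50% of each list by score, there were 17626 gene body regions in Pemt-/- and 24016 in Pemt+/+, 36.3% and 36.6% of the regions, with median tags of 18 and 25. Of these, 77.0% and 56.5% overlapped the other mouse, -2.83 and -2.80 points from other regions. The first 10% of transcripts held 7.79% in both mice. The median pair ratio was 0.675, with 112 pairs 2-fold higher and 131 lower in Pemt-/-. Genes with a region fell to 8 and 6 of the liver transcription factors, to 15 of the p53 list in Pemt-/- and to 12 of the hepatocyte list in Pemt+/+. With the Pemt+/+ list limited to as many top-scoring regions as Pemt-/-, 37.7% of Pemt+/+ regions were gene body regions with a median of 20 tags. Sharing was then 70.1% and 71.3%, -3.45 and -0.948 points from other regions, the pair ratio 0.659, and 434 pairs were 2-fold higher. When regions also near another transcript were left out, gene body regions were 34.6% of each list, 60.9% of the Pemt+/+ ones were shared, and the differences were -1.40 and -1.06 points. On autosomes alone 39.1% of Pemt+/+ regions were gene body regions. When an overlap had to cover 50% of each region, sharing was 76.9% and 56.6%. Coding transcripts alone moved no value beyond its interval or 1.5 times its count. Of 178 values, 143 stayed within these limits and 35 moved. Only the differences could change sign, and 0 did. Values taken from the Pemt-/- list alone could not move when only the Pemt+/+ list was cut. The tally is therefore no measure of how stable the results are. Applying the alternatives to the differences and the gene lists was decided after seeing the data.

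No paired analysis was possible because a single library stands for either genotype, which also leaves none to omit. The number of tags limits what can be seen: gene body regions of 8 to 9 tags were shared in 58.7% of cases in Pemt-/- and those of 50 or more in 98.6%, so a region missing from one list is not shown to be unmethylated.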
